A study of Mus musculus with 2 samples.

Results

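Neuropeptide precursor genes, together with the granins and enzymes that store and cut their products, were followed across the cell classes of the mouse hippocampus in 2 single-nucleus RNA libraries. The 31 genes were taken by symbol from a fixed list, out of 32285 genes in the deposited matrices, and each had at least 1 UMI (a unique molecular identifier, which counts 1 captured RNA molecule) in both libraries. They were 21 precursors of secreted peptides, 3 of which encode opioids, the secreted protein gene Nxph1, 5 granins, the convertase chaperone Scg5, and 3 genes of peptide cutting. The first library came from mice with both 5XFAD and a knockout of MR1, labelled 5XFAD x MR1 KO, and the other from mice with 5XFAD alone. 5XFAD is a set of transgenes, driven by Thy1 sequences in neurons, that encodes mutant human APP and presenilin and leads to amyloid plaques, so both groups carried it. MR1 presents vitamin B metabolites to MAIT cells, and the series asks what this axis does in this model. All mice were 8 months old. Each library pooled the hippocampi of 1 female and 1 male mouse, about 20 mg of flash-frozen tissue was used, and the droplet kit counted the 3′ ends of nuclear RNA.

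Neuropeptides are cut from larger precursor proteins in the secretory pathway, packed into dense-core vesicles with granins, and released to act on receptors of nearby cells. In the hippocampus, different classes of inhibitory interneuron are known by the peptides they make, somatostatin and neuropeptide Y in one set, vasoactive intestinal peptide in another, while striatal projection neurons use tachykinins and opioids. Glia make few of these peptides. In droplet libraries, RNA released from broken cells is captured with every nucleus, so the UMIs of a peptide gene in glia give the level that such free RNA can reach.

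The promoter sequences of 5 members are shown. Of the 25 members with an entry, Sst, Chgb, Scg2 and Cartpt are those that hold the full cyclic AMP response element in the window searched. Tac1, the member with the lowest ratio in glia, holds only its shorter form. Pnoc, Grp, Vgf, Penk, Cpe and Crh had no entry and were not searched. Each run holds the 250 bases before the RefSeq start in GRCm38.p6, written 5′ to 3′ on the strand of the gene. The GENCODE M21 gene records begin further upstream than these RefSeq starts. Capitals mark TGACGTCA, the palindromic cyclic AMP response element, in Sst, Chgb, Scg2 and Cartpt, and TGACG on the opposite strand (read as CGTCA) in Tac1.
Sst, chr16:23890845-23891094, minus strand: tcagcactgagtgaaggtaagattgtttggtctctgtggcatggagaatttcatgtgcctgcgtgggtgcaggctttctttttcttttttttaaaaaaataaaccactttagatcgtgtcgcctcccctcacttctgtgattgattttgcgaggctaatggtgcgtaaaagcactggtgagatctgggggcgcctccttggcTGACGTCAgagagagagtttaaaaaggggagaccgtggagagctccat
Chgb, chr2:132781392-132781641, plus strand: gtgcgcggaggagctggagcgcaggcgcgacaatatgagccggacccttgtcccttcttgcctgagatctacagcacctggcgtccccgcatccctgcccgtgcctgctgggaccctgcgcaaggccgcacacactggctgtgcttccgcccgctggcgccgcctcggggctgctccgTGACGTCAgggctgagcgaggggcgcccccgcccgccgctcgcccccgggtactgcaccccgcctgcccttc
Scg2, chr1:79440027-79440276, minus strand: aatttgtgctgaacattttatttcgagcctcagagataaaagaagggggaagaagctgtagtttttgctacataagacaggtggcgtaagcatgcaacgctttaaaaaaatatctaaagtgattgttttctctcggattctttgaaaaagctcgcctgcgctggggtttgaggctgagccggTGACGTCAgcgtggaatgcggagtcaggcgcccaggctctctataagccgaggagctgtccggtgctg
Cartpt, chr13:99900684-99900933, minus strand: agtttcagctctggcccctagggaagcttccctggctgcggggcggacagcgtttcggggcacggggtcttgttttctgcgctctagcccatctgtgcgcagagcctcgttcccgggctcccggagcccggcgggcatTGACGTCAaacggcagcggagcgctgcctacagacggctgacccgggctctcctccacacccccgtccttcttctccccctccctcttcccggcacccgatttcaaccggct
Tac1, chr6:7554811-7555060, plus strand: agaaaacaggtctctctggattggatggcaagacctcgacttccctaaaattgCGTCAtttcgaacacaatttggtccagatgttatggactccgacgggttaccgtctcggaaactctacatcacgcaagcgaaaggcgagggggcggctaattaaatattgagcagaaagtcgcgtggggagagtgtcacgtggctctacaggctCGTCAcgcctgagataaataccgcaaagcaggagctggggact
The full element lay at -48 to -41 in Sst, -72 to -65 in Chgb, -68 to -61 in Scg2 and -112 to -105 in Cartpt, counted from the base before the start as -1. Searched on both strands, it was found in 4 of the 25 members with an entry and in 478 of 27025 genes (1.77%). TGACG, which the full element contains, was found in 15 of the 25 members and in 19.8% of all genes, in Tac1 at -197 to -193 and -43 to -39. TATAAA was found in 3 of the 25 members (Vip, Adcyap1 and Rln1) and in 14.3% of all genes. A match describes letters in this window and was not tested as a binding site.

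Of barcodes there were 26212 in the library labelled MR1 knockout, with 85678909 UMIs (median 2458), and 25238 in the 5XFAD library, with 106861726 UMIs (median 3135). After filtering, 17727 nuclei of the library labelled MR1 knockout were kept, with a median of 2544 UMIs, and 12648 nuclei of the 5XFAD library, with a median of 3787. The mitochondrial limit of 5% took out 8.92% of barcodes in the library labelled MR1 knockout and 35.8% in the 5XFAD library. Mr1 RNA did not follow its label. Mr1 had 68 UMIs (1.15 CPM) in the nuclei kept of the library labelled MR1 knockout and 38 UMIs (0.624 CPM) in the 5XFAD library, a ratio of 1.85 (95% interval 1.22 to 2.82). A 3′ tag can lie outside the deleted part of an allele, so this count checks nothing about the protein, and each direction given here belongs to the library labelled MR1 knockout. The libraries shared 182 barcode sequences.

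Levels are given as UMIs per nucleus or as CPM, the UMIs of a gene among 1000000 UMIs of its cell class, and are 3′ counts not divided by gene length. A ratio divides the CPM in the library labelled MR1 knockout by that in the other. Where a sentence gives a pair of values with no group beside them, it is the library labelled MR1 knockout and then the 5XFAD library. With 1 library in each group there was no test between groups, and every interval is a 95% interval for counting error only. Cell classes were rebuilt from marker genes other than the 31 members, and a class name means nuclei like that type. A member is called higher or lower where its ratio was at least 1.5 or at most 0.667 with at least 100 UMIs in the class over both libraries.

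Classes took their names from lists of markers, so markers of a class above glia follow from the naming and are no separate check. The 7 genes of the Sst interneuron list other than Sst summed to 3012 CPM in that class in the library labelled MR1 knockout and to 3670 CPM in the 5XFAD library, against 680 and 630 CPM in glia. The libraries differed in which nuclei they held. Striatal medium spiny-like neurons, which are not a hippocampal cell type, were 8 of 17727 nuclei in the library labelled MR1 knockout and 1175 of 12648 in the 5XFAD library, where sex-linked RNA placed 713 in the male mouse, 2 in the female mouse and the rest in neither. Dentate granule neurons were 23.5% of the female and 25.2% of the male nuclei in the library labelled MR1 knockout, against 21.7% and 3.58% in the 5XFAD library. An unnamed cluster, 0, led by Smoc1 and Otof, had 2390 nuclei in the library labelled MR1 knockout and 102 in the 5XFAD library, and 2249 of the first came from the female mouse. A difference between the libraries and a difference in what was dissected from each mouse cannot be told apart here.

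Each member was read in its highest class against glia of the same library. That class was chosen among all classes, the glial ones included, so a level above pooled glia follows largely from the choice. In 9 of the 31 (Sst, Vip, Tac2, Crh, Pnoc, Pthlh, Nxph1, Adcyap1 and Pcsk2), the class with the most UMIs per nucleus held at least 10-fold the glial level in both libraries. Glia were shallower than neurons (median 1029 and 1437 UMIs), and the count was 2 on the CPM scale (Crh and Vip) and 3 with every nucleus thinned to 750 UMIs (Crh, Tac2 and Vip). The heat map of levels by class shows the pattern in each library.

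**Figure D1:**
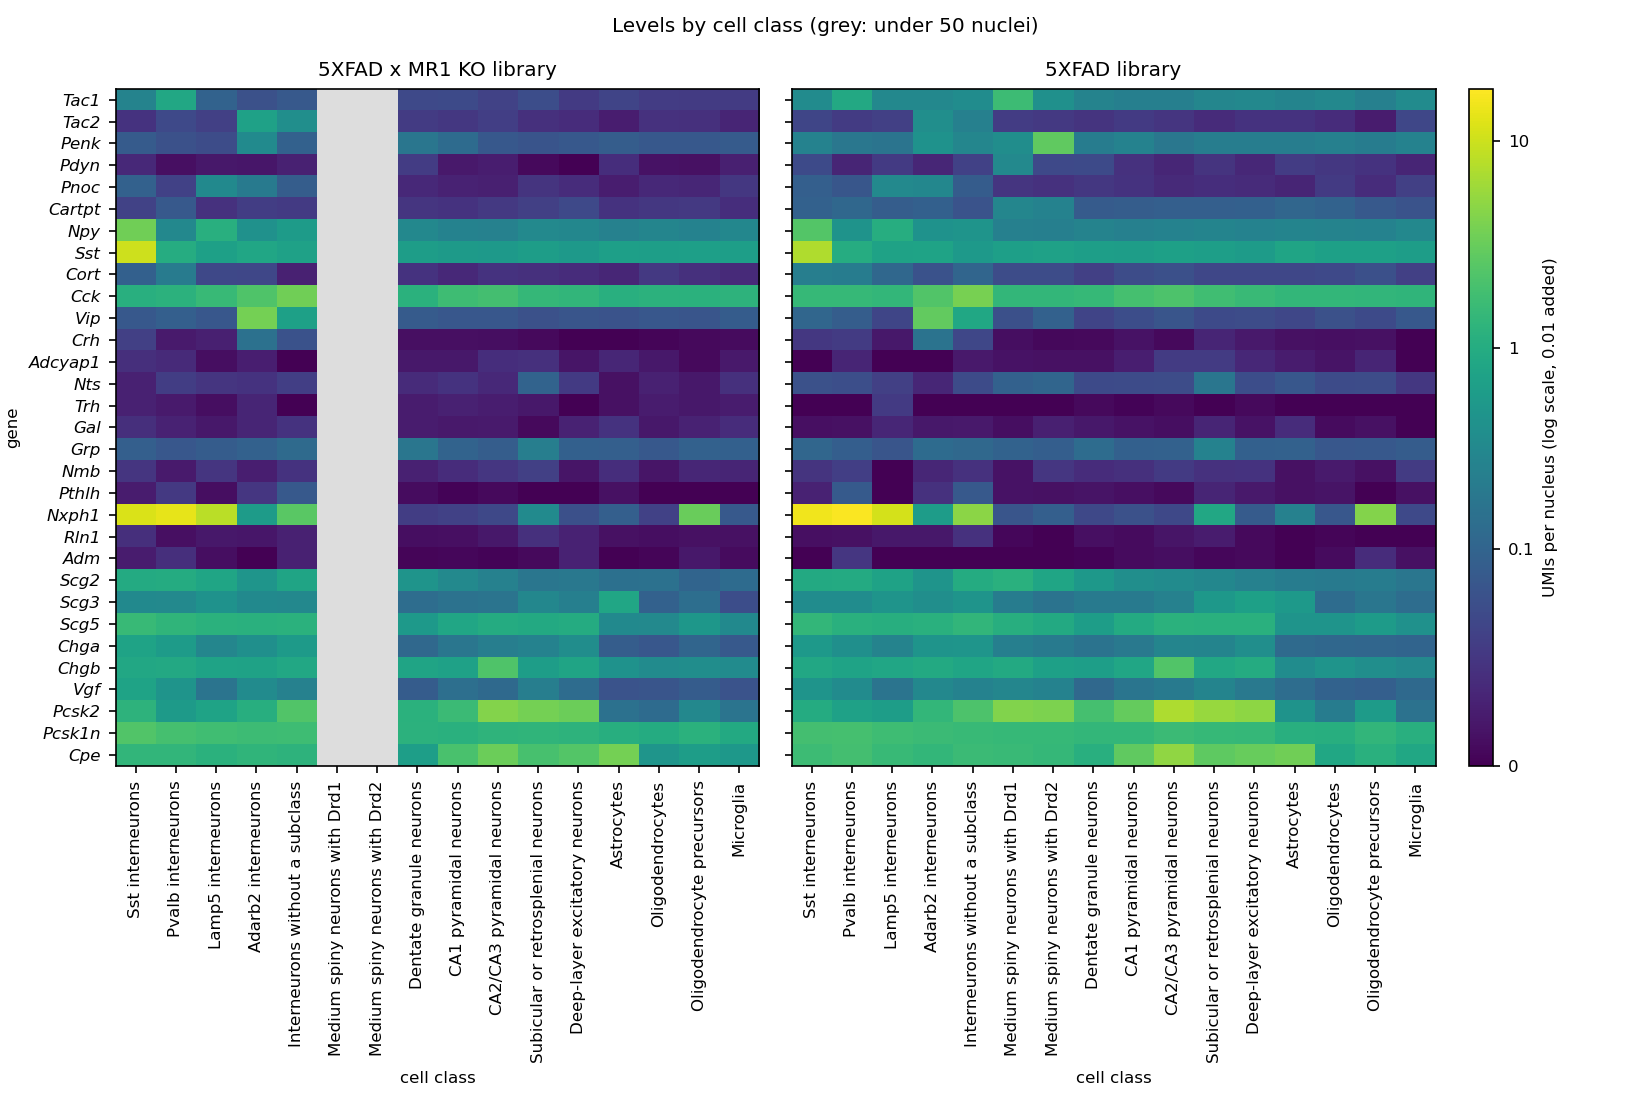
UMIs per nucleus (colour, log scale with 0.01 added) of the 31 genes (rows) in each cell class (columns), for the 5XFAD x MR1 KO library on the left and the 5XFAD library on the right. Sst and Npy were brightest in Sst interneurons and Vip in Adarb2 interneurons in both libraries, while Tac1 and Penk were brighter in the glial and CA1, CA2/CA3, subicular and deep-layer columns of the 5XFAD library; the medium spiny classes are grey where they held under 50 nuclei.

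Somatostatin, the inhibitory peptide that gives its interneurons their name, was read at 10.0 UMIs per nucleus in Sst interneurons of the library labelled MR1 knockout, where 509 nuclei held 5097 UMIs. In the 5XFAD library it was read at 7.37 UMIs per nucleus in 294 nuclei (2166 UMIs). Its glial level was 0.662 and 0.693 UMIs per nucleus, so the source class stood 15.1-fold and 10.6-fold above glia. Npy, which encodes neuropeptide Y, was also most abundant in Sst interneurons, at 3.47 UMIs per nucleus in the library labelled MR1 knockout and 2.37 in the 5XFAD library, with 0.289 and 0.282 in glia. Median depths were 3685 and 4358 UMIs in Sst interneurons, against 1029 and 1437 UMIs in glia. With nuclei thinned to 750 UMIs, an Sst UMI was seen in 65.4% and 55.1% of Sst interneurons, against 35.1% and 30.05% of glia; unthinned, the shares were 89.98% and 90.8%, against 47.2% and 50.2%. GRCm38 places Sst (ENSMUSG00000004366) at chromosome 16, 23889573 to 23890958 on the minus strand, and Npy (ENSMUSG00000029819) at chromosome 6, 49822710 to 49829507 on the plus strand.

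Vip, which encodes vasoactive intestinal peptide, had 3.72 UMIs per nucleus in Adarb2 interneurons of the library labelled MR1 knockout (351 nuclei) and 2.93 in those of the 5XFAD library (159 nuclei). That was 55.9-fold and 57.3-fold over glia, and the annotation places Vip (ENSMUSG00000019772) at chromosome 10, 5639218 to 5647617 on the plus strand. Tac2, the precursor of neurokinin B, was highest in the same class at 0.707 and 0.396 UMIs per nucleus, 45.7-fold and 20.5-fold over glia. Crh, the corticotropin-releasing hormone gene, was lower in number, with 53 and 26 UMIs in that class and 5 in glia of each library. Pnoc, the precursor of nociceptin, was highest in Lamp5 interneurons at 0.334 and 0.327 UMIs per nucleus, 21.1-fold and 14.6-fold over glia. Cck, the cholecystokinin gene, was highest in interneurons that took no subclass name (3.5 and 3.79 UMIs per nucleus), and glia held 1.21 and 1.39, so its source stood only 2.89-fold and 2.72-fold above the glial level.

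Cort, which encodes cortistatin, a relative of somatostatin, was highest in Pvalb interneurons of the library labelled MR1 knockout (0.213 UMIs per nucleus, 11.7-fold over glia) and in Sst interneurons of the 5XFAD library (0.235, 5.62-fold). Nxph1, which encodes the secreted neurexin ligand neurexophilin, had 13.5 and 17.0 UMIs per nucleus in Pvalb interneurons. Its glial UMIs were not spread evenly. Oligodendrocyte precursors held 3.16 and 4.47 Nxph1 UMIs per nucleus, while the lowest glial class held 0.0322 and 0.0425. Pthlh, which encodes parathyroid hormone-related peptide, was rare, with 14 UMIs in interneurons without a subclass and 1 in glia of the library labelled MR1 knockout, and 19 UMIs in Pvalb interneurons and 7 in glia of the 5XFAD library.

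The remaining peptide genes were sparse or had their highest level in unnamed clusters. Nts (neurotensin) had 0.173 UMIs per nucleus in cluster 7, led by Zfhx3, in the library labelled MR1 knockout. In the 5XFAD library Nts was highest in subicular or retrosplenial neurons, at 0.179. The top 50 genes of cluster 7 held Rmst, Zic1, Prkcd and Slc17a6, markers of an excitatory class. The cluster stayed unnamed because Gad1 and Gad2 together were above Slc17a6 and Slc17a7 over both libraries. Grp (gastrin-releasing peptide) was highest in cluster 11, led by Pde11a and Dcn among named genes, at 0.309 and 0.311 UMIs per nucleus. Adcyap1, the gene of the peptide PACAP, was highest in cluster 30 with 14 UMIs in the library labelled MR1 knockout and in cluster 15 with 43 UMIs in the 5XFAD library. Gal (galanin) had 14 UMIs in its highest class in the library labelled MR1 knockout and 2 in that of the 5XFAD library, Nmb (neuromedin B) 15 and 10, Rln1 (relaxin) 9 and 3, and Adm (adrenomedullin) 2 and 6. Trh, the thyrotropin-releasing hormone gene, had 209 UMIs over all nuclei kept of the library labelled MR1 knockout and 15 in the 5XFAD library, and 91 of the 209 lay in unnamed cluster 0.

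**Figure D2:**
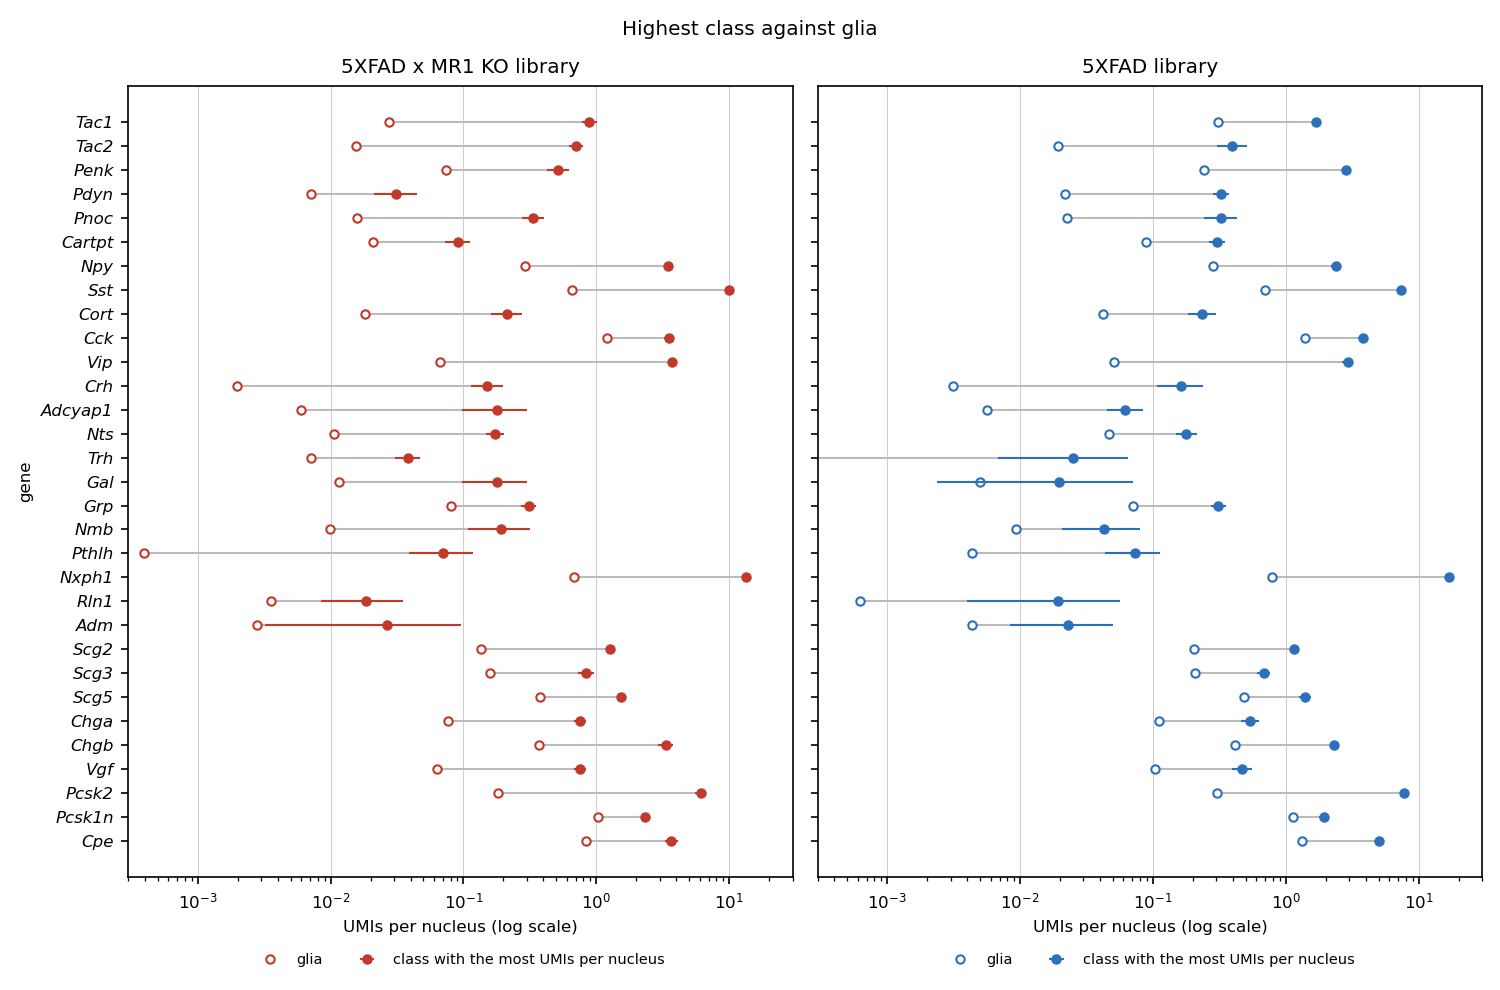
UMIs per nucleus (log axis) of each gene in its highest class (filled, with 95% counting interval) and in glia (open), for the 5XFAD x MR1 KO library on the left and the 5XFAD library on the right. Vip, Tac2 and Crh stand far from glia in both, whereas the open points of Tac1, Penk and Cartpt lie further right in the 5XFAD library.

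Among granins and processing enzymes, the highest class was often shared. Scg5, the chaperone of the convertase PC2, had 1.53 and 1.40 UMIs per nucleus in Sst interneurons, and Chga (chromogranin A) had 0.754 and 0.541. Vgf, a granin-like precursor induced by nerve growth factor, had 0.758 and 0.469 in the same class. Chgb (chromogranin B) was highest in unnamed cluster 30 of the library labelled MR1 knockout (3.33 UMIs per nucleus) and in CA2/CA3 neurons of the 5XFAD library (2.30). Scg2 (secretogranin II) was highest in cluster 7 (1.27) and in Drd1 medium spiny neurons (1.16), in that order of libraries. Pcsk2, the convertase PC2 itself, reached 6.10 UMIs per nucleus in cluster 30 of the library labelled MR1 knockout and 7.74 in cluster 15 of the 5XFAD library. Pcsk1n, which encodes the inhibitor proSAAS of the convertase PC1, reached 2.33 UMIs per nucleus in Sst interneurons of the library labelled MR1 knockout and 1.94 in Pvalb interneurons of the 5XFAD library.

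Scg3 and Cpe, of the storage and cutting machinery, were glial in part. Scg3 (secretogranin III) had 0.833 UMIs per nucleus in astrocytes of the library labelled MR1 knockout and 0.561 in those of the 5XFAD library, while the lowest glial class had 0.0491 and 0.132. Cpe, the carboxypeptidase that trims cut peptides, had 3.68 and 3.49 UMIs per nucleus in astrocytes, while the lowest glial class had 0.488 and 0.863. By contrast, the 4 main glial classes lay close together for Sst, between 0.659 and 0.683 UMIs per nucleus in the library labelled MR1 knockout and between 0.625 and 0.791 in the 5XFAD library. For Cck they lay between 1.12 and 1.24, and between 1.34 and 1.42.

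Tac1, Penk and Cartpt were lower in glia of the library labelled MR1 knockout. Tac1 encodes substance P and neurokinin A, and the annotation places Tac1 (ENSMUSG00000061762) at chromosome 6, 7554879 to 7565834 on the plus strand. It had 69 UMIs in 2524 glia of the library labelled MR1 knockout and 493 UMIs in 1603 glia of the 5XFAD library. That was 21.8 CPM against 177.5 CPM, a ratio of 0.123 (0.0939 to 0.158). Penk, the enkephalin precursor (ENSMUSG00000045573), overlaps an antisense gene, and whether the counts use strand is not known here. It had 58.7 CPM in glia of the library labelled MR1 knockout and 140.0 CPM in those of the 5XFAD library, a ratio of 0.419 (0.350 to 0.5002). Cartpt, which encodes the peptide CART, had 16.7 and 51.5 CPM, a ratio of 0.325 (0.232 to 0.448). As UMIs per nucleus, Tac1 lay between 0.0269 and 0.0366 in the 4 main glial classes of the library labelled MR1 knockout. In those of the 5XFAD library it lay between 0.254 and 0.359. The 4 classes of a library shared 1 capture, and this scale does not take out depth (median 1029 and 1437 UMIs in glia). Cck lay apart on it too, at 1.12 to 1.24 and 1.34 to 1.42, but its CPM ratio was 1.20, the other way.

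Of the 20 members with at least 100 UMIs in glia, 5 were lower, where 2.35% of all genes tested were lower, and 2 were higher, where 6.5% were. Besides the 3 above, Nts was lower (8.52 against 27.0 CPM, ratio 0.315, 0.195 to 0.496) and so was Cort (14.5 against 24.1 CPM, ratio 0.602, 0.404 to 0.889). Vip was higher, at 53.0 CPM in glia of the library labelled MR1 knockout and 29.5 CPM in those of the 5XFAD library (ratio 1.80, 1.37 to 2.37). Grp was higher too, at 64.3 against 41.0 CPM (ratio 1.57, 1.24 to 1.99). The other 13 lay within the limits, with Npy at 1.42, Sst at 1.32, Cck at 1.20 and Pcsk2 at 0.833. The median log2 ratio of the members was 0.01, beside 0.09 over all genes tested. Sst, Cck, Chgb, Pcsk1n, Nxph1, Scg3 and Scg5, with CPM ratios above 1 but inside the limits, were lower as UMIs per nucleus, such as Sst at 0.662 against 0.693.

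**Figure D3:**
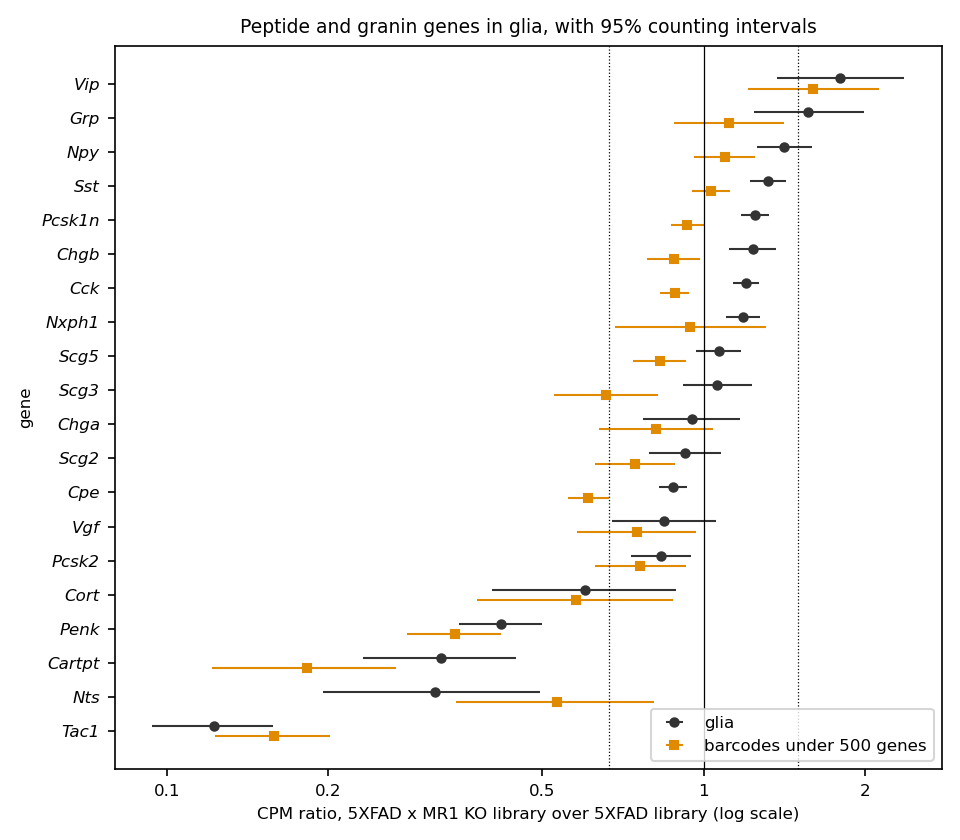
Ratio of CPM, 5XFAD x MR1 KO divided by 5XFAD (log axis), for the 20 genes with at least 100 UMIs in glia, in glia (circles) and in barcodes with under 500 genes (squares), with 95% counting intervals; dotted lines mark the 1.5-fold limits. Tac1, Cartpt, Nts and Penk sit left of the limits in both.

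Barcodes with under 500 genes, which were left out of every class, were read beside glia. Tac1 had 76.7 CPM in such barcodes of the library labelled MR1 knockout and 484.5 CPM in those of the 5XFAD library, a ratio of 0.158. Penk had a ratio of 0.344, Cartpt 0.183, Cort 0.579, Nts 0.532 and Vip 1.60. Of the 7 members called in glia, these 6 were past the limit in the same direction in these barcodes, and Grp, at 1.11 (0.880 to 1.41), was not. Scg3 (0.659) and Cpe (0.6098) were lower in these barcodes and not in glia. Of 21 members with 100 UMIs there, 7 were lower (3.75% of all genes) and 1 was higher (7.15%). The number of Tac1 UMIs per Penk UMI was 0.371 (0.277 to 0.492) in glia of the library labelled MR1 knockout and 1.27 (1.11 to 1.45) in those of the 5XFAD library. Across the 4 main glial classes it ran from 0.356 to 0.450 and from 1.14 to 1.37. Some of these values rest on few UMIs, such as 9 of Tac1 and 20 of Penk in astrocytes of the library labelled MR1 knockout. The intervals of astrocytes overlapped, at 0.180 to 1.03 and 0.853 to 1.76. Oligodendrocytes alone had 3 of 17 members lower (2.02% of all genes), Tac1 at 0.123, Cartpt at 0.344 and Penk at 0.392, and 2 higher (5.27%), Vip at 1.73 and Npy at 1.51. Microglia alone had 2 of 11 lower (3.32%), Tac1 at 0.101 (0.0594 to 0.163) and Penk at 0.386, and none higher (5.59%).

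The glial levels were also read by mouse, although the 2 mice of a library shared 1 capture, in which free RNA reaches the nuclei of both, so they are no independent check of each other. Tac1 had 0.0245 UMIs per nucleus in glia of the female and 0.0217 in those of the male mouse of the library labelled MR1 knockout, against 0.271 in the female and 0.370 in the male mouse of the 5XFAD library. On the CPM scale the ratios were 0.118 between the females and 0.0785 between the males. Penk had ratios of 0.394 between the females and 0.496 between the males, and Cartpt 0.246 and 0.220. Grp had 1.49 between the females and 1.05 between the males, and Vip 1.67 and 1.64. The 9 markers of medium spiny neurons were all detected in glia of both libraries and summed to 532 CPM in the library labelled MR1 knockout and to 870 CPM in the 5XFAD library, with none at 0. Of the 5 markers of Drd1 neurons, 4 had a UMI in glia of the library labelled MR1 knockout and 5 in those of the 5XFAD library. The part of the medium spiny nuclei in the glial levels was not tested.

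Medium spiny neurons of the 5XFAD library carried the striatal peptides by type. Drd1 neurons of the direct pathway (649 nuclei) had 1.69 Tac1 UMIs per nucleus and Drd2 neurons of the indirect pathway (526 nuclei) had 0.422, with 0.308 in glia. On the CPM scale Tac1 was at 366 in Drd1 and 110 in Drd2 neurons, a ratio of 3.33 (2.88 to 3.87). Pdyn, the dynorphin precursor, was at 70.9 CPM in Drd1 and 10.9 CPM in Drd2 neurons (6.52, 4.19 to 10.6). Penk went the other way, at 82.3 CPM in Drd1 and 743 CPM in Drd2 neurons (0.111, 0.0964 to 0.127). Cartpt did not separate them, at 65.9 and 68.3 CPM (0.965, 0.772 to 1.21). These are the peptides by which the types are known. Here a sub-cluster took its type from whether Drd1 or Drd2 had the higher CPM, and the peptide genes were not used for this. In the library labelled MR1 knockout, 8 medium spiny nuclei gave no level to set beside these.

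In that library Tac1 had another leading class. Its 0.887 UMIs per nucleus in Pvalb interneurons of the library labelled MR1 knockout stood 32.4-fold above glia, whereas 0.904 in those of the 5XFAD library stood 2.94-fold above glia. On the CPM scale the class had 202 against 175 CPM, a ratio of 1.15 (0.962 to 1.39), and with the glial UMIs per nucleus taken off it had 195.6 against 115.4 CPM, a ratio of 1.70. That last ratio carries no interval and was the highest of 12 alternatives, of which male nuclei alone gave the lowest, 0.7035. In Sst interneurons Tac1 was 10.1-fold above glia in the library labelled MR1 knockout and 1.18-fold in the 5XFAD library. Likewise Penk in dentate granule neurons was 2.43-fold above glia in the library labelled MR1 knockout and at 0.905 of the glial level in the 5XFAD library. The libraries held the 2 granule clusters in unlike numbers, and Penk was at 100.8 against 103.4 CPM within cluster 1. Within cluster 4 it was at 29.3 against 50.05 CPM. Penk reached its highest class levels in cluster 12 of the library labelled MR1 knockout (0.518 UMIs per nucleus) and in Drd2 medium spiny neurons of the 5XFAD library (2.86). Pdyn had 115 of its 254 UMIs in dentate granule neurons in the library labelled MR1 knockout, against 63 of 559 in the 5XFAD library, where 234 lay in medium spiny neurons.

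Interneurons of the library labelled MR1 knockout had higher CPM of the somatostatin, neuropeptide Y, VIP and neurokinin B precursors. Over all interneurons, 6 of the 22 members tested were higher (3.58% of all genes) and 3 were lower (1.08%). Tac2 was at 53.6 CPM in the library labelled MR1 knockout and 23.8 CPM in the 5XFAD library (2.25, 1.83 to 2.78), Vip at 228 against 125.5 CPM (1.82, 1.66 to 1.99), Npy at 371 against 215 CPM (1.73, 1.61 to 1.85) and Sst at 905 against 526 CPM (1.72, 1.64 to 1.80). Vgf (1.68) and Chga (1.55) were the others. The lower ones were Penk (31.3 against 51.5 CPM, 0.608), Cartpt (8.69 against 17.6 CPM, 0.495) and Cort (20.2 against 32.4 CPM, 0.623), 3 of those that were also lower in glia. Penk in interneurons stood at 1.71-fold the glial level in the library labelled MR1 knockout and 1.08-fold in the 5XFAD library, and Cartpt at 1.66-fold and 1.00-fold. Taking off the glial UMIs per nucleus left Penk at 13.0 against 3.92 CPM and Cartpt at 3.47 against 0.0562 CPM. In the 5XFAD library these remainders came from 0.263 against 0.243 UMIs per nucleus in glia for Penk, and 0.0895 against 0.0892 for Cartpt. They carry no interval, so neither a lower nor a higher level in interneurons is read for Penk and Cartpt. Cort was left at 15.7 against 24.2 CPM (0.647), also without an interval. With nuclei thinned to 750 UMIs its ratio in interneurons was 0.975. Crh (1.42), Pnoc (1.26), Cck (1.13), Nxph1 (0.893) and Cpe (1.00) stayed within the limits. The members had a median log2 ratio of 0.33, the 7 inhibitory genes that are not peptides (such as Gad1) had 0.38 with none past the limits, and all genes tested had 0.08.

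Within Sst interneurons, Sst was at 2307 CPM in the library labelled MR1 knockout and 1375 CPM in the 5XFAD library (1.68, 1.60 to 1.77), and Npy at 799 against 442 CPM (1.81, 1.65 to 1.98). As UMIs per nucleus the ratios were smaller, 1.36 for Sst and 1.46 for Npy. Cort was lower over the same class, at 20.8 against 43.8 CPM (0.475, 0.320 to 0.700). In all, 6 of 16 members were higher (5.02% of all genes) and 2 lower (1.86%). The other higher ones were Vgf (175 against 87.6 CPM), Chga (174 against 101 CPM), Pcsk2 (1.58) and Pcsk1n (1.52), and Penk (0.352) was the other lower one. The sub-clusters of this class differed in their levels of Cort, Vgf, Chga, Pcsk2 and Pcsk1n and in their shares of each library, as given below. Taking off the glial UMIs per nucleus left Sst at 1.73 and Npy at 1.88, and in Adarb2 interneurons Vip at 1.59 and Tac2 at 2.30.

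Adarb2 interneurons had Vip at 1133 CPM in the library labelled MR1 knockout and 713 CPM in the 5XFAD library (1.59, 1.43 to 1.77) and Tac2 at 215 against 96.4 CPM (2.23, 1.69 to 2.99). These were 2 of 17 members higher (3.75% of all genes) and none was lower (1.40%), with Penk at 0.989 and Cck at 1.20. In Pvalb interneurons 2 of 15 members were higher (4.18%), Chga at 1.70 and Vgf at 1.55, and none lower (2.56%), while Nxph1 was at 3076 against 3284 CPM (0.937). In Lamp5 interneurons none of 13 was higher (3.76%) or lower (1.87%), and Pnoc was at 91.6 against 76.1 CPM (1.21, 0.857 to 1.71), within counting error. Interneurons without a subclass had 6 of 14 members higher (3.23%) and none lower (1.72%). These were Tac2 at 2.15, Sst and Npy at 1.75 each, Chga at 1.67, Pcsk1n at 1.56 and Chgb at 1.51, and Cck was at 761 against 600 CPM (1.27).

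The difference in Sst, Npy, Vip and Tac2 was present between the female mice and was not seen, or was turned round, between the male mice. Npy in Sst interneurons was at 976 CPM in the female of the library labelled MR1 knockout and 283 CPM in the female 5XFAD mouse, a ratio of 3.45 (3.01 to 3.96). Between the males it was at 432 against 683 CPM, a ratio of 0.633 (0.530 to 0.753). Sst was at 2659 against 1094 CPM in the females (2.43, 2.26 to 2.61) and 1694 against 1821 CPM in the males (0.930, 0.846 to 1.02). Vip in Adarb2 interneurons was at 1369 against 497 CPM in the females and 717 against 1116 CPM in the males, where the 5XFAD mouse gave 25 nuclei. Tac2 there was at 214 against 52.1 CPM in the females and 59.8 against 290.5 CPM in the males. Cort in Sst interneurons, lower over the class, had a ratio of 0.237 (0.120 to 0.441) between the females, from 14 against 43 UMIs, and of 0.833 (0.410 to 1.67) between the males, from 17 against 20 UMIs. For Npy, Vip and Tac2, the 2 mice of one label lay further apart than the libraries did, with 1 mouse per sex and label.

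**Figure D4:**
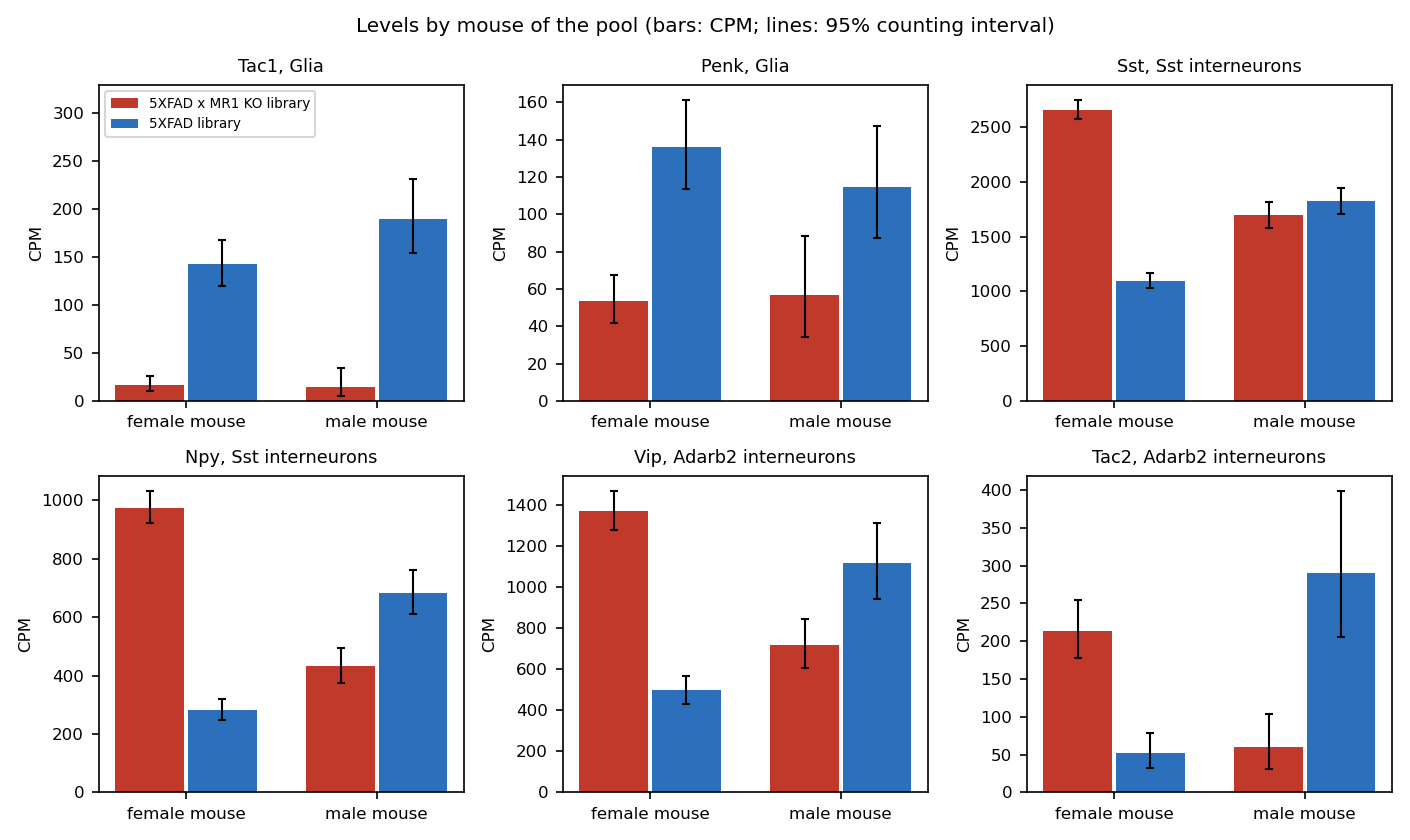
CPM (bars, with 95% counting interval) of 6 gene and class pairs in the female and male mouse of each pool, the 5XFAD x MR1 KO library in red left of the 5XFAD library in blue. Tac1 and Penk in glia are low in both mice of the library labelled MR1 knockout, whereas Sst, Npy, Vip and Tac2 are high in its female mouse and at or below the 5XFAD library in its male mouse.

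The interneuron classes were not made up of the same sub-clusters in each library. Sub-cluster i1 of Sst interneurons, led by Sox6 and Moxd1 among its genes, held 229 of 509 nuclei (45.0%) in the library labelled MR1 knockout and 26 of 294 (8.84%) in the 5XFAD library. It held 181 of the 292 female and 3 of the 94 male nuclei of this class in the library labelled MR1 knockout, and had 2801 CPM of Sst and 907 CPM of Npy over both libraries. Sub-cluster i2 of Pvalb interneurons, with 254 CPM of Tac1, held 102 of 282 nuclei (36.2%) in the library labelled MR1 knockout and 6 of 261 (2.30%) in the 5XFAD library. Each was mostly of 1 library and 1 mouse, so it may be that mouse or library and not a type of its own. The highest Sst (4776 CPM) and Npy (4602 CPM) over both libraries lay in i14 of the same class as i1, which held 10 nuclei in the library labelled MR1 knockout and 11 in the 5XFAD library. Vgf, Chga, Pcsk2 and Pcsk1n, higher in Sst interneurons, were at 210, 178, 447 and 621 CPM in i1, both libraries summed. In i9 they were at 125, 135, 146 and 489 CPM, and in i4 at 99.3, 131, 191 and 334 CPM. Cort was at 12.7 CPM in i1, 31.6 in i9, 54.8 in i4 and 16.9 in i10. Within i9, 5 of 12 members were higher (3.40% of all genes), and within i4 2 of 12 (3.67%), with none lower (3.72% and 2.06%). The part of the sub-clusters in these ratios was not tested. Sub-cluster i3 of Adarb2 interneurons, the Vip-rich one, made up alike shares of its class, 40.7% (143 of 351) and 43.4% (69 of 159).

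**Figure D5:**
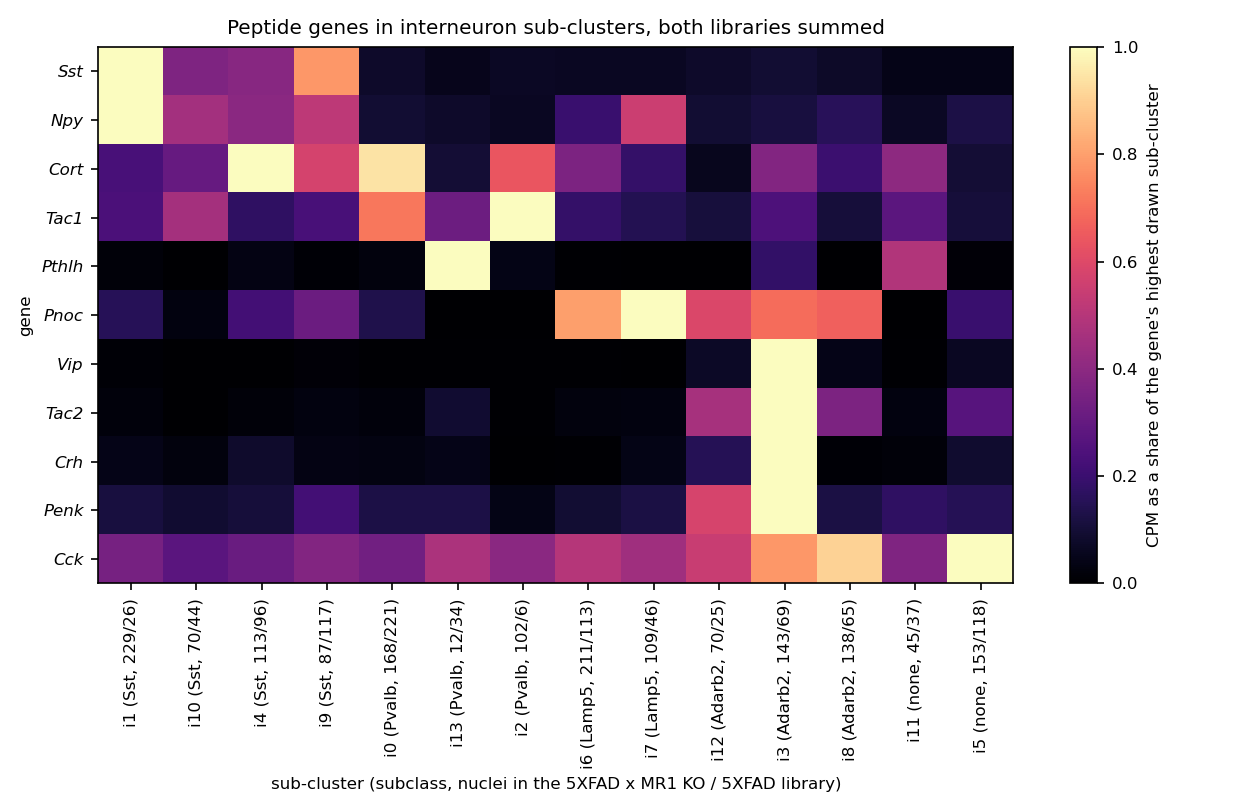
CPM of 11 peptide genes (rows) in interneuron sub-clusters (columns, with subclass and nuclei in the 5XFAD x MR1 KO / 5XFAD library), as a share of the highest drawn sub-cluster of each gene, both libraries summed. Among the sub-clusters drawn, Sst is highest in i1 and i9 and Vip in i3; i14, with 10 and 11 nuclei, is not drawn.

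Without i1 and i2, Sst in Sst interneurons had a ratio of 1.31 and was no longer past the limit, while Npy kept 1.77; over all interneurons Sst fell to 1.20, against 1.72 with them, and Npy was at 1.53, Vip at 2.17 and Tac2 at 2.68. Within single sub-clusters, Sst was at 3063 CPM in i9 of the library labelled MR1 knockout and 1670 CPM in that of the 5XFAD library (1.83, 1.68 to 2.01). Npy in i9 was at 815.5 against 261.8 CPM (3.12, 2.54 to 3.84). Vip in i3 was at 3403 against 1834 CPM (1.86, 1.66 to 2.08) and Tac2 at 419 against 123 CPM (3.40, 2.28 to 5.22).

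In dentate granule neurons 9 of 22 members were higher (11.3% of all genes) and 3 were lower (3.68%). Chgb was at 347 CPM in the library labelled MR1 knockout and 164.0 CPM in the 5XFAD library (2.12, 1.97 to 2.28), and Grp at 78.7 against 33.1 CPM (2.38, 2.03 to 2.80). Vip (33.4 against 9.35 CPM, 3.57), Tac2 (2.27) and Npy (2.01) were higher too, as were Sst (1.67), Scg2 (1.57), Pcsk1n (1.54) and Scg5 (1.54), of which the last 4 were lower in UMIs per nucleus, at ratios of 0.957, 0.896, 0.881 and 0.880. The median depth of these nuclei was 1986 UMIs in the library labelled MR1 knockout and 3446 in the 5XFAD library, and all genes tested had a median log2 ratio of 0.14. Sst was read at 0.626 and 0.654 UMIs per nucleus in granule neurons, beside 0.662 and 0.693 in glia, and Npy at 0.319 and 0.278, beside 0.289 and 0.282, and Vip at 0.0752 and 0.0368, beside 0.0666 and 0.0512, so these lay near the glial level. Chgb stood above it, at 0.783 and 0.646 UMIs per nucleus, 2.11-fold and 1.55-fold over glia, and so did Grp, at 2.20-fold and 1.83-fold.

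Tac1 (18.7 against 69.6 CPM, 0.269), Cartpt (0.492) and Nts (0.604) were the lower ones in granule neurons. Different clusters held most of the class in the 2 libraries, cluster 1 with 3230 and 265 nuclei and cluster 4 with 947 and 1201. Within them Chgb had ratios of 1.36 and 1.55, Npy 1.51 and 1.54, Grp 2.04 and 1.02, Scg2 0.981 and 1.11, and Tac1 0.182 and 0.204. Penk, at 1.42 over the class, had 0.976 and 0.586 within them. Chgb was thus higher in both clusters by less than over the class as a whole, and Scg2 was not past the limit in either.

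In the other excitatory classes the members that differed were mostly those that differed in glia. CA1 neurons had 3 of 18 members higher (4.01% of all genes), Vip at 2.08, Grp at 1.64 and Npy at 1.58, and 2 lower (1.13%), Tac1 at 0.265 and Cartpt at 0.363. CA2/CA3 neurons had 1 of 17 higher (3.53%), Vip at 1.66, and 3 lower (0.955%), Tac1 at 0.211, Cartpt at 0.416 and Penk at 0.553. Chgb was at 442 against 298 CPM there (1.48), just inside the limit, while Pcsk2 (870.3 against 919 CPM, 0.947) and Cpe (646 against 657 CPM, 0.984) differed little. Subicular or retrosplenial neurons had 1 of 17 higher (3.30%), Npy at 1.70, and 3 lower (1.04%), Tac1 at 0.234, Penk at 0.371 and Nxph1 at 0.570. Deep-layer neurons had 1 of 14 higher (6.64%), Npy at 1.53, and 3 lower (4.54%), Tac1 at 0.108, Penk at 0.393 and Scg3 at 0.474. In these classes and dentate granule neurons the Tac1 level lay between 0.953 and 1.80 of the glial level in the library labelled MR1 knockout and between 0.794 and 1.04 in the 5XFAD library. Npy lay near the glial level too. It was at 0.907 and 0.878 of that level in CA1 neurons and 1.15 and 0.988 in subicular or retrosplenial neurons. In deep-layer neurons it was at 1.06 and 0.943. As UMIs per nucleus the Npy ratio in CA1 neurons was 1.06.

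Astrocytes had their own values for the glial members. Scg3 was at 473.5 CPM in astrocytes of the library labelled MR1 knockout and 263.6 CPM in those of the 5XFAD library (1.80, 1.44 to 2.24), 1 of 9 members higher there (6.53% of all genes). Pcsk2 was at 87.8 against 211.6 CPM (0.415, 0.279 to 0.604), 1 of 9 lower (7.88%), and Cpe at 2090 against 1639 CPM (1.28, 1.16 to 1.40). In oligodendrocyte precursors Nxph1 was at 2086 against 1977 CPM (1.06), and none of 11 members was higher (5.44%) or lower (2.19%).

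Cluster 7 had Scg2 at 350 CPM in the library labelled MR1 knockout and 129 CPM in the 5XFAD library (2.72, 2.46 to 3.01). Its 4 higher of 20 members (7.71% of all genes) also held Vip at 2.85, Pcsk1n at 1.55 and Vgf at 1.55. Its 2 lower members (5.71%) were Pnoc at 0.381 and Nxph1 at 0.511. Of the mouse-assigned nuclei, this cluster took 8.58% of the female and 0.957% of the male nuclei in the library labelled MR1 knockout, against 0.234% and 17.2% in the 5XFAD library, so its nuclei come mostly from a female mouse in one library and a male mouse in the other. The cluster also differed in its inhibitory genes that are not peptides, of which 6 of 7 were lower (median log2 ratio -1.18, beside 0.04 over all genes), such as Gad1 at 60.3 against 136.4 CPM (0.442), Slc32a1 at 0.370 and Dlx1 at 0.218, with Erbb4 at 0.773 inside the limit. Their part in the Scg2 result was not tested.

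The other unnamed clusters repeated the lower Tac1. In cluster 11, which 777 and 781 nuclei formed, 2 of 15 members were lower (1.05% of all genes), Tac1 at 8.13 against 45.65 CPM (0.178) and Penk at 0.476, and none was higher (2.82%), with Grp at 67.3 against 52.8 CPM (1.27). In cluster 24, 1 of 13 was lower (1.77%), Tac1 at 0.211, and none higher (2.14%). Cluster 12 had 2 of 13 lower (10.0%), Tac1 at 18.8 against 315 CPM (0.0599, 0.0271 to 0.115) and Pcsk2 at 178 against 999.7 CPM (0.178), and none higher (9.49%). Its mouse-assigned nuclei were 168 of the female and 0 of the male mouse in the library labelled MR1 knockout, against 1 and 149 in the 5XFAD library. Cluster 21, of nuclei with a median of 681 and 682 UMIs, had 5 of 13 lower (14.1%) and none higher (10.9%), from Tac1 at 0.109 to Cpe at 0.633. Cluster 0 rested on 102 nuclei in the 5XFAD library, and had 4 of 18 higher (20.5%), among them Chgb at 351 against 169.7 CPM (2.07) and Vgf at 2.11, and 2 lower (6.39%), Tac1 at 0.189 and Nxph1 at 0.406.

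Summed over all nuclei kept, 11 of 30 members were higher (6.45% of all genes) and 6 lower (2.69%), and here more nuclei of a class and more RNA per nucleus cannot be told apart. Trh had the highest ratio, 14.4 (8.52 to 26.1), from 209 against 15 UMIs, followed by Rln1 at 2.61, Vip at 2.20, Adcyap1 at 2.15 and Tac2 at 2.04. Tac1 (0.262), Cartpt (0.351), Pdyn (0.469), Penk (0.557), Nts (0.582) and Cort (0.632) were the lower ones. Adcyap1 had 113 of its 340 UMIs in cluster 0 and 90 in cluster 7 in the library labelled MR1 knockout. Over all barcodes, before any filter, 7 of 31 members were higher (6.58%) and 6 lower (3.36%), with Tac1 at 1911 against 10086 UMIs (0.236) and Trh at 307 against 31 UMIs (12.4).

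Of the 37 peptide receptors, 13 reached 100 UMIs in interneurons, where 2 were higher (3.58% of all genes) and none lower (1.08%; median log2 ratio 0.15, beside 0.08 over all genes), with Npy2r, a presynaptic neuropeptide Y receptor, at 24.6 against 6.68 CPM (3.68, 2.54 to 5.46) and Ntsr2 lowest at 0.711. In dentate granule neurons 3 of 15 receptors were higher (11.3%) and 2 lower (3.68%; median 0.27, beside 0.14), from the delta opioid receptor gene Oprd1 at 2.96 to the receptor gene Trhr at 0.366 (17.3 against 47.3 CPM). In glia 2 of 7 were higher (6.5%), Ramp2 at 1.74 and Oprl1 at 1.59, and none lower (2.35%; median 0.40, beside 0.09). Cluster 7 had 7 of 13 receptors higher (7.71%) and 1 lower (5.71%; median 0.66, beside 0.04), from Trhr at 3.67 to the PACAP receptor gene Adcyap1r1 at 0.556. Cluster 0 had 6 of 18 higher (20.5%) and 1 lower (6.39%; median 0.31, beside 0.12), where the 5XFAD library gave 1 to 44 UMIs a receptor. Of the 22 other genes of processing and release, 19 were tested in interneurons, where only Pcsk5 (1.66), a convertase, passed the limit (median -0.01). In granule neurons 1 of 18 was higher, Rab3a at 1.54, and none lower (median -0.13), and in glia 1 of 17 was higher, Ctsl at 1.52, and none lower (median -0.08). Cluster 7 had 4 of 20 of these genes higher and none lower (median 0.12), and cluster 0 had 4 of 20 higher and 2 lower (median 0.04). The inhibitory genes that are not peptides had 5 tested in glia, with none higher and 1 lower, Slc32a1, the vesicular GABA transporter gene, at 23.0 against 51.1 CPM (0.450; median -0.23).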

How the data were processed

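RNA was measured in hippocampal nuclei by 3′ droplet sequencing, 1 library per group. The deposited values are raw UMI counts per gene and barcode; the authors used Cell Ranger 7.0.0, per the file headers, and the submitters' processing notes name mm10 and Seurat. Neither the gene annotation, nor how strand and introns were handled, is given in the sources used here. Of the members, 8 overlap another gene (such as Penk, Pcsk2, Nxph1 and Scg3), whose reads may not have been told apart. Coordinates are from GENCODE M21 (GRCm38, the mm10 build) and promoters from RefSeq (GRCm38.p6).

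Nuclei were kept with at least 500 genes and under 5% mitochondrial UMIs. Doublets were marked within each library with Scrublet in scanpy 1.11.5 at 0.8% per 1000 nuclei, since the automatic threshold, seen first, marked 0% in both; 4854 barcodes (19.9%) of the library labelled MR1 knockout and 4469 (19.0%) of the 5XFAD library were marked. Both libraries were clustered together without the 31 members (Leiden resolution 1.5, 32 clusters, igraph 0.11.9). A cluster took a name where its top 50 genes held 3 or more markers of that class and its leading genes did not contradict it. Clusters in which at least 15% of nuclei had both Xist and Y-linked UMIs were left out as mixed, a limit not fixed in advance. Nuclei with 2 or more Xist UMIs and none from the Y chromosome were assigned to the female mouse, and those with a Y-linked UMI and no Xist to the male mouse (9222 and 3135 nuclei in the library labelled MR1 knockout, 5556 and 3545 in the 5XFAD library). Both mice shared a capture and are not independent replicates.

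UMIs were summed per library and class. Ratios carry exact conditional binomial 95% intervals and levels exact Poisson intervals (scipy 1.17.1), which cover counting error only; the calculation was tested on simulated data. A class needed at least 100 nuclei in each library to be compared, and at least 50 to count as a source. The members and gene lists were chosen with earlier results of these data known. The rule named members in full in their highest class, or where past 1.5-fold in glia, with at least 100 UMIs, and the list genes with the largest and smallest ratio; other genes named with a value were chosen after their values were seen. Alternatives changed the limits on genes, mitochondrial UMIs and doublets, the mouse, depth, resolution, scaling, the minimum of UMIs and the fold. Leaving out sub-clusters i1 and i2, and reading barcodes under 500 genes beside glia, were chosen after seeing the data.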

Additional observations from a re-analysis of the deposited data

Results flagged for a closer look

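Of 210 pairs of gene and class with at least 20 UMIs over both libraries in each sex, 16 had a ratio between the female mice and a ratio between the male mice on opposite sides of 1, each with an interval that did not include 1. The difference between the sexes was not tested, since there was 1 mouse per sex and label. Npy in Sst interneurons had a ratio of 3.447 between the females and 0.6326 between the males. Vip in Adarb2 interneurons had 2.755 and 0.6426, Cck in the same class 1.193 and 0.727, and Tac2 there 4.107 and 0.2058. In Pvalb interneurons, Scg2 had 2.34 between the females and 0.5412 between the males, Pcsk2 1.511 and 0.4971, and Nxph1 1.104 and 0.7292. Sub-cluster i13 of this class held 11 of 175 female and 0 of 51 male nuclei in the library labelled MR1 knockout. In the 5XFAD library it held 0 of 136 female and 21 of 79 male nuclei. Over both libraries i13 had 559 CPM of Scg2, 356 CPM of Pcsk2 and 6040 CPM of Nxph1. The larger i0 of this class had 148, 115 and 2843 CPM, and the part of i13 in these ratios was not tested. Over all interneurons, which hold the nuclei above too, Npy had 2.686 and 0.7754 and Tac2 2.579 and 0.5216. Scg2 had 1.711 and 0.7275 there, and Nxph1 1.104 and 0.6782. Pcsk2, the convertase PC2, also differed this way in 3 excitatory classes, with 1.246 between the females and 0.839 between the males in dentate granule neurons, 1.08 and 0.7229 in CA2/CA3 pyramidal neurons, and 1.319 and 0.6436 in deep-layer excitatory neurons. Penk in dentate granule neurons had 2.148 and 0.5247. With both mice together its ratio was 0.976 within granule cluster 1 and 0.586 within cluster 4. Nts in subicular or retrosplenial neurons was lower between the females, at 0.4827, and higher between the males, at 5.117.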

How the results depend on the processing

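No paired analysis was possible because each group had 1 library. The comparison in medium spiny neurons gave no value, with 8 nuclei in the library labelled MR1 knockout. Unnamed clusters were not matched between resolutions. Of 1518 ratios under the alternatives, 174 lay on the other side of 1. Of the 560 past 1.5-fold in the main setting, 464 stayed past it and 13 changed side. These 13 were, in male nuclei alone, Tac2 (0.206) and Vip (0.643) in Adarb2 interneurons, Npy (0.633) and Sst (0.930) in Sst interneurons, Tac2 (0.522), Npy (0.775) and Sst (0.962) in all interneurons, and Scg2 in dentate granule neurons (0.926); as UMIs per nucleus, Sst (0.957), Scg2 (0.896), Scg5 (0.880) and Pcsk1n (0.881) in dentate granule neurons; and thinned to 750 UMIs, Penk in CA2/CA3 neurons (1.15).

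The count of members higher in glia, 2 in the main setting, was 0 with at least 1000 genes, in female nuclei, in male nuclei, as UMIs per nucleus and at 2-fold, 1 without a mitochondrial limit, thinned or with median-of-ratios scaling, and 6 under 2% mitochondrial UMIs. The 5 lower in glia were 2 with at least 1000 genes or in female nuclei, 3 under 2% mitochondrial UMIs or thinned, 1 in male nuclei and 8 as UMIs per nucleus. Smaller sums leave fewer members with 100 UMIs in these subsets. The 6 higher in interneurons were 1 in male nuclei, as UMIs per nucleus or at 2-fold, and the 3 lower were 1 in female nuclei, thinned or at 2-fold and 5 with a minimum of 20 UMIs. Over the excitatory classes, 15 higher gene and class pairs became 7 in male nuclei, 9 thinned, 1 as UMIs per nucleus, 24 with a minimum of 20 UMIs and 6 at 2-fold. The 14 lower pairs became 6, 2, 32 and 22 under the first 4 of these. The 9 members above glia in both libraries became 3 in male nuclei or thinned, 2 on the CPM scale, 18 at 5-fold and 4 at 20-fold. The cause of these changes was not tested further. Rare members (Gal, Nmb, Rln1, Adm, Trh and Pthlh) are limited by their few UMIs.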
